A study of Mus musculus with 9 samples.

Results

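A set of 10 genes of the smooth muscle contractile apparatus and the actin cytoskeleton was followed in mouse embryonic stem cells with and without Sirt6: Acta2, Actg2, Tagln, Tagln2, Cnn1, Cnn2, Myl9, Tpm1, Tpm2 and Actn1. They were taken by symbol from the 23366 rows of the count table, and all 10 were present. The genes had been chosen by their measured difference between the 2 genotypes in these same libraries, so their differences are given as a description, with no test. RNA was sequenced from 9 samples in 3 groups of 3: wild type (WT), a SIRT6 knockout (Sirt6-KO), and wild type without glucose. The 6 libraries of the first 2 groups are compared here; the glucose-free samples were not analysed here. All groups were 129 SvJae F1 embryonic stem cells at passage 21, grown in serum and leukaemia inhibitory factor (LIF). Whether the knockout is 1 clone and whether feeder cells were used are points not given in the sources used here.

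Smooth muscle cells contract by sliding myosin along filaments of alpha and gamma smooth muscle actin, and transgelin, calponin and tropomyosin decorate those filaments. In most other cells the same jobs are done by cytoplasmic actins and by relatives of these proteins that serve cell shape, adhesion and movement. Many genes of the contractile set are bound by serum response factor (SRF) at a DNA element called the CArG box, together with myocardin or the myocardin-related factors, which sense free actin. Pluripotent stem cells are not contractile, and these genes are usually read as signs of differentiation or of mesenchymal cells in a culture.

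Total counts ran from 20107037 to 29267115 per library. Levels are counts per 1000000 of the library total (CPM) after scaling by the trimmed mean of M values (TMM). Sirt6 was at 13.5 ± 0.690 CPM in wild type and 0.308 ± 0.0664 CPM in the knockout (SD, n = 3), the direction the labels give. All 12 embryonic stem cell markers were well above 1 CPM in both groups, but 6 of them fell, 3 rose and 3 did not pass (edgeR; median log2 fold change -0.22). Klf4, Sall4 and Lin28a had log2 fold changes of -0.97 ± 0.10, -0.93 ± 0.13 and -0.69 ± 0.10, and Tdgf1 one of 0.89 ± 0.11 (adjusted p = 1.71e-05, 0.000118, 0.000185 and 7.11e-05). The core factor Sox2 rose (0.40 ± 0.10, adjusted p = 0.0070), and its call was not followed under other settings. The calls of the core factors Pou5f1 (-0.46 ± 0.13, adjusted p = 0.0108) and Nanog (-0.32 ± 0.09, adjusted p = 0.0139) were fragile. That of Pou5f1 ended without wild-type replicate 3 or knockout replicate 2 (0.0535 and 0.0646), and that of Nanog with total counts (0.150) and without wild-type replicates 1, 2 or 3 or knockout replicate 2 (0.0538, 0.0605, 0.0623 and 0.0584). Of 14988 genes that passed the filter on low counts, 55.7% were called different at an adjusted p under 0.05 (edgeR quasi-likelihood test), 27.9% higher in the knockout and 27.8% lower. With total counts as the scaling, which moved the median log2 fold change of all genes from 0.01 to 0.13, 62.3% of calls were higher against 50.1% with TMM. Against this background 9 of the 10 genes could be tested, and 7 were called higher and 2 lower. Nothing is read from that count, since the same contrast chose the genes. The tenth, Actg2, had too few counts to pass the filter.

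The smooth muscle actin gene Acta2, the transgelin gene Tagln, the calponin gene Cnn1 and the light chain gene Myl9 were close to silent in wild-type cells and 8.38 to 25.1 times as abundant in the knockout. Acta2, which encodes alpha smooth muscle actin, had 3, 2 and 2 counts in wild type and 56, 66 and 58 in the knockout. In CPM these were 0.112, 0.0837 and 0.0773 against 1.76, 2.70 and 2.90. Every knockout library was therefore far above every wild-type library, while the gene stayed a minor transcript. Its fitted log2 fold change was 4.65 ± 0.39 (SE), the largest of the 9.

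Tagln, also known as SM22-alpha, an actin-binding protein and an early marker of smooth muscle, reached the highest level of these 4. It stood at 2.01, 1.67 and 2.94 CPM in wild type and at 18.0, 21.2 and 25.8 CPM in the knockout, with a log2 fold change of 3.28 ± 0.205. The groups were well apart, although the wild-type values themselves varied by 29.6% of their mean (SD). In the GENCODE M21 annotation 877 bases of Tagln exons lie opposite exons of the antisense gene Gm48529 and 94 opposite those of Pcsk7, and whether counting used strand was not given in the sources used here, so reads of overlapping genes cannot be told apart. Pcsk7 itself, at -0.14 ± 0.12 on the log2 scale, did not pass (edgeR, adjusted p = 0.352), though it was called without knockout replicate 1 (-0.26, adjusted p = 0.0217).

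Cnn1 encodes the smooth muscle calponin, which restrains the myosin ATPase on actin. Its levels were 0.857, 0.628 and 0.502 CPM in wild type and 4.85, 5.81 and 6.56 CPM in the knockout, a log2 fold change of 3.09 ± 0.23. Myl9, the regulatory light chain of smooth muscle myosin, gave almost the same figures: 0.634, 0.837 and 0.541 CPM against 4.91, 5.32 and 6.76 CPM, and a log2 fold change of 3.07 ± 0.22. In both genes the knockout libraries lay well above the wild-type ones. Log2 fold changes of at least 2 upward that were also called (adjusted p under 0.05, edgeR) were found in 5.16% of all tested genes and in these 4 of the 9.

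Actg2, the gamma smooth muscle actin gene of visceral muscle, did not share that clear separation. It had 1, 0 and 2 counts in wild type and 3, 2 and 8 in the knockout. The ratio of the summed counts, scaled for library size, was 4.36 with an exact 95% interval of 1.20 to 23.8 that covers counting error only. A single knockout library held 8 of the 13 counts, so the gene is best described as barely detected in either group.

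**Figure D1:**
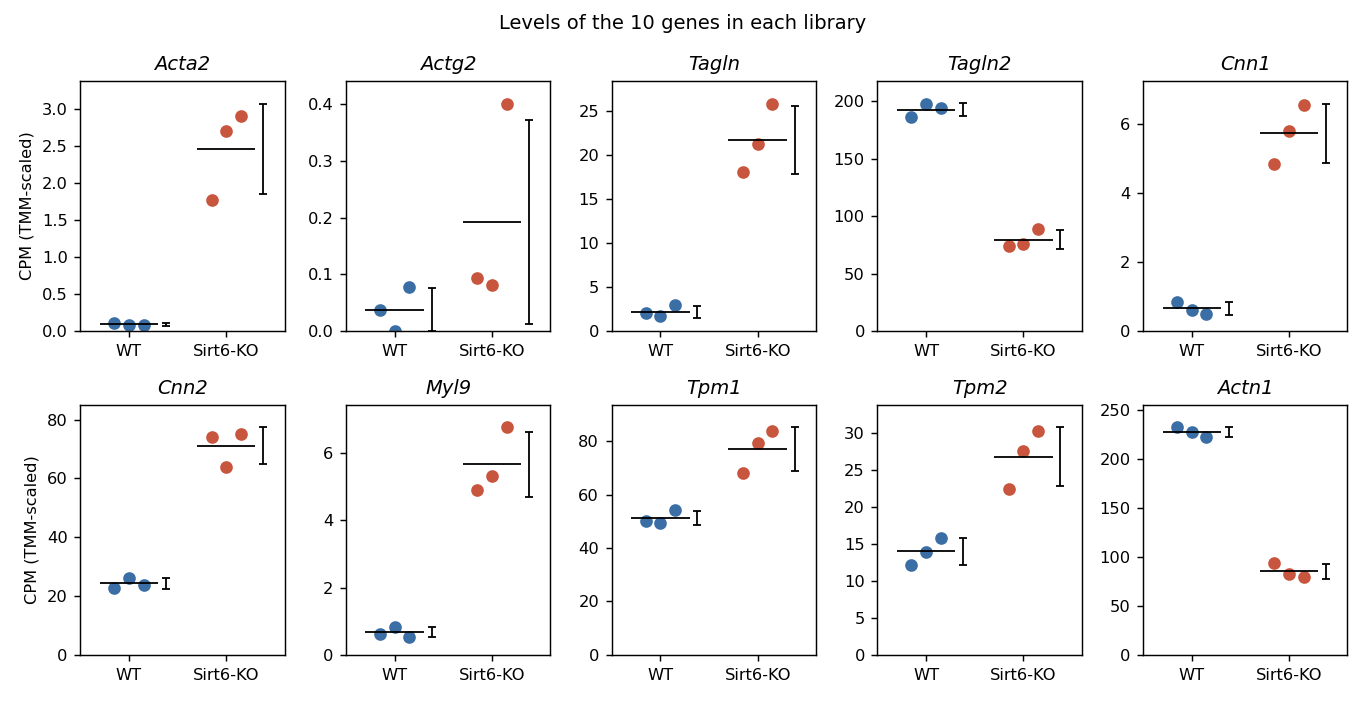
Level of each of the 10 genes in the 3 wild-type (blue) and 3 Sirt6-KO (red) libraries, in TMM-scaled CPM on linear axes that start at 0; horizontal lines are group means and side bars are ± SD. Acta2, Tagln, Cnn1 and Myl9 rise from near 0 in wild type, Cnn2, Tpm1 and Tpm2 rise from higher levels, Tagln2 and Actn1 lie lower in every knockout library, and Actg2 stays below 0.5 CPM.

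The broadly expressed genes of the set moved by smaller factors and in both directions. Cnn2, the calponin of non-muscle and epithelial cells, stood at 22.9, 26.3 and 23.8 CPM in wild type and 74.2, 63.9 and 75.1 CPM in the knockout (log2 fold change 1.55 ± 0.11). Tpm2, which encodes beta-tropomyosin, stood at 12.2, 14.0 and 15.9 CPM against 22.5, 27.6 and 30.3 CPM (0.93 ± 0.14). Tpm1, which encodes alpha-tropomyosin, had the smallest difference of the set, 50.2, 49.5 and 54.3 CPM against 67.9, 79.4 and 83.6 CPM (0.58 ± 0.11). In all 3 genes each knockout library was above each wild-type library.

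Tagln2 and Actn1, the most abundant of the 10 genes in wild-type cells, were lower in the knockout. Tagln2 encodes the transgelin of non-muscle cells and stood at 186, 198 and 195 CPM in wild type and 74.0, 76.0 and 89.4 CPM in the knockout (log2 fold change -1.27 ± 0.10). Actn1, which encodes the non-muscle alpha-actinin that crosslinks actin at focal adhesions and stress fibres, stood at 232, 228 and 222 CPM against 93.7, 82.5 and 79.8 CPM (-1.41 ± 0.10). The groups were apart in both. Over all tested genes, the groups did not overlap in 63.2%, with the knockout higher in 31.2% and lower in 32%, and they did not overlap in any of the 9. The authors' deposited table gives the same directions, with log2 fold changes of 3.82 for Acta2, 3.19 for Tagln, 2.92 for Cnn1, 2.90 for Myl9, 1.53 for Cnn2, 0.92 for Tpm2, 0.58 for Tpm1, -1.26 for Tagln2 and -1.40 for Actn1.

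Per kilobase of exon, the order of the 10 genes changed between the groups. In wild type Tagln2 led at 117 ± 3.66 CPM per kb, followed by Actn1 at 59.9 ± 1.32, Tpm1 at 10.7 ± 0.541, Cnn2 at 9.89 ± 0.726 and Tpm2 at 5.88 ± 0.775. Tagln followed at 1.38 ± 0.410, then Myl9 at 0.594 ± 0.134, Cnn1 at 0.263 ± 0.0714, Acta2 at 0.0447 ± 0.00903 and Actg2 at 0.0279 ± 0.0283 CPM per kb. The mean ± SD ranges of Tpm1 and Cnn2, and of Acta2 and Actg2, overlapped. In the knockout Cnn2, at 28.9 ± 2.54 CPM per kb, stood above Actn1 at 22.5 ± 1.94, and Tagln, at 13.6 ± 2.44, reached the range of the tropomyosins Tpm1 (16.1 ± 1.70) and Tpm2 (11.3 ± 1.67). Tagln2 still led at 48.4 ± 5.06, and Myl9, Cnn1, Acta2 and Actg2 remained the lowest at 5.02 ± 0.860, 2.28 ± 0.340, 1.21 ± 0.299 and 0.141 ± 0.132 CPM per kb. Exon lengths were the union over the isoforms of the basic GENCODE M21 set, which lowers the value of a gene with many isoforms such as Tpm1.

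The DNA before the start of these genes was searched for the CArG box, the binding element of SRF, because contractile genes are known for it. The box is CC, then 6 letters that are each A or T, then GG, and it reads as a box on both strands. The RefSeq promoter table (build GRCm38.p6) held 8 of the 10 genes; Tagln and Actg2 were not matched. Within the 250 bases before the annotated start, Cnn2 and Myl9 held an exact CArG box, whereas 1.47% of the 32851 promoters in the table held one. A box with 1 of its 6 inner letters off was also found once in Myl9 and at 2 places in Acta2, so that 3 of the 8 held an exact or near box, against 8.59% of all promoters. Tagln2, Cnn1, Tpm1, Tpm2 and Actn1 held neither in this window. Of these, Cnn1, Tpm1 and Tpm2 were higher in the knockout, and Tagln2 and Actn1 were lower. The letters CATTCC or their reverse complement, the core of the element read by TEAD factors, were found in Acta2, Tagln2 and Tpm1, 3 of the 8, against 12.6% of all promoters, and TATAAA on either strand in 0 of the 8, against 12.4%; a match is no evidence of binding. Shown, 5′ to 3′ in the direction of the gene, are the 3 upstream sequences with a box and that of Actn1, without one. Capitals mark exact and near CArG boxes. They lie at chr19:34255374-34255623 (minus strand, Acta2), chr2:156775214-156775463 (plus, Myl9), chr10:79988350-79988599 (plus, Cnn2) and chr12:80260364-80260613 (minus, Actn1).
Acta2: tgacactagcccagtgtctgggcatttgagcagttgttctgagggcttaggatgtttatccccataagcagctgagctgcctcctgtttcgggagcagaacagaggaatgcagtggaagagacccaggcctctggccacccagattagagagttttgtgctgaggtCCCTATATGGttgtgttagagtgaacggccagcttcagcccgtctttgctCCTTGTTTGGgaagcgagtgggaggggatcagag
Myl9: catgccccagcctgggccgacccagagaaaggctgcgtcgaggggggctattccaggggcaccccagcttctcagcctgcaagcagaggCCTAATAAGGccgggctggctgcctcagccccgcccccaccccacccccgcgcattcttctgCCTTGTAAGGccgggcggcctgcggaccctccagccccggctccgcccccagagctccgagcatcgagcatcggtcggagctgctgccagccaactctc
Cnn2: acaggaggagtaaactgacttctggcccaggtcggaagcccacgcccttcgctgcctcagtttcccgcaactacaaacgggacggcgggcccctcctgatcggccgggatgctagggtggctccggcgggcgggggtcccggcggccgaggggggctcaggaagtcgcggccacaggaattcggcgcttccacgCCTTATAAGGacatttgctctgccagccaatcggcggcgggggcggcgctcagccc
Actn1: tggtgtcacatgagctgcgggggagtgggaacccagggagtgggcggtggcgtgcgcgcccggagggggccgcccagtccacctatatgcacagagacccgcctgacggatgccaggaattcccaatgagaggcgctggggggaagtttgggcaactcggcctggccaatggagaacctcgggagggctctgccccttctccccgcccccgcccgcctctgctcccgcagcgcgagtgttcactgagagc
The boxes start 84 and 34 bases before the annotated start in Acta2, 161 (exact) and 99 bases before it in Myl9, and 56 bases before it in Cnn2.

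Each of the genes belongs to a small protein family, and the relatives outside the set show which changes were shared. Among 17 paralogues, 16 were tested, and 4 rose, 5 fell and 7 did not pass (edgeR). Their median log2 fold change was 0.02 against 0.01 for all tested genes. Acta1, with 7, 4 and 4 counts in wild type, and Myl7, with 2, 3 and 2, passed the filter only through the knockout libraries. The count of rises and the median thus lean upward. In the actin family the skeletal muscle actin gene Acta1 rose with Acta2, from 0.194 ± 0.0581 to 1.83 ± 0.280 CPM (log2 fold change 3.18 ± 0.31, adjusted p = 1.11e-05). The cardiac actin gene Actc1 had 0 counts in wild type and 4, 9 and 5 in the knockout. Taking 3 counts over the wild-type group as the floor, it was at least 6.04-fold higher. Cytoplasmic actins outweighed all of these: beta-actin (Actb) and gamma-actin (Actg1) together made up nearly the whole family in every library. Actb was at 64.6% ± 0.371 of the family per kb in wild type and 57.5% ± 0.226 in the knockout, and Actg1 at 35.3% ± 0.373 and 42.4% ± 0.233, while the share of Acta2 went from 0.00183% ± 0.000394 to 0.0574% ± 0.0138. Actb fell by 0.39 on the log2 scale (adjusted p = 0.0156) and Actg1 did not pass (0.04 ± 0.11, adjusted p = 0.755).

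In the other families, minor members in wild-type cells took a larger part in the knockout. Tagln was 1.15% ± 0.333 of the transgelins per kb in wild type and 21.0% ± 1.39 in the knockout, and Tagln2 went from 96.9% ± 0.295 to 75.1% ± 1.65. The neuronal member Tagln3 had a log2 fold change of 0.12 ± 0.18 that did not pass (adjusted p = 0.583). Cnn2 went from 8.53% ± 0.733 to 20.5% ± 1.92 of the calponins and Cnn1 from 0.227% ± 0.0634 to 1.61% ± 0.142. Cnn3, the most abundant calponin in both groups, did not pass (0.06 ± 0.10, adjusted p = 0.654). None of these shares overlapped between the groups, but neither did the CPM of 63.2% of all tested genes. Shares within a family also depend on each other. That of Tagln3 went from 1.95% ± 0.0420 to 3.99% ± 0.309 without a called change in its level.

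Among the tropomyosins Tpm3, the leading non-muscle form, fell by 0.60 ± 0.11 on the log2 scale (adjusted p = 0.000662) while Tpm4 rose by 0.31 ± 0.09 (adjusted p = 0.0155). Tpm1 and Tpm2 went from 5.13% ± 0.0881 and 2.80% ± 0.235 of the family per kb to 9.17% ± 0.356 and 6.39% ± 0.505. In the actinins the abundant members fell. Actn4, the other non-muscle actinin, fell with Actn1, from 399 ± 30.4 to 102 ± 13.6 CPM (-1.96 ± 0.12, adjusted p = 4.80e-07), and the summed level of the family per kb went from 173 ± 8.81 to 63.4 ± 6.51 CPM. The share of Actn1 was 34.7% ± 1.21 in wild type and 35.5% ± 0.996 in the knockout, overlapping between groups, and that of Actn4 went from 58.6% ± 1.54 to 40.8% ± 1.20. The minor members took larger shares here too, Actn3 going from 6.44% ± 0.458 to 20.5% ± 0.849 and Actn2 from 0.317% ± 0.0774 to 3.24% ± 0.129. The muscle actinin gene Actn2 rose from 1.66 ± 0.476 to 6.21 ± 0.876 CPM (adjusted p = 2.63e-05), and the skeletal muscle form Actn3 did not pass (0.22 ± 0.10, adjusted p = 0.0696).

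**Figure D2:**
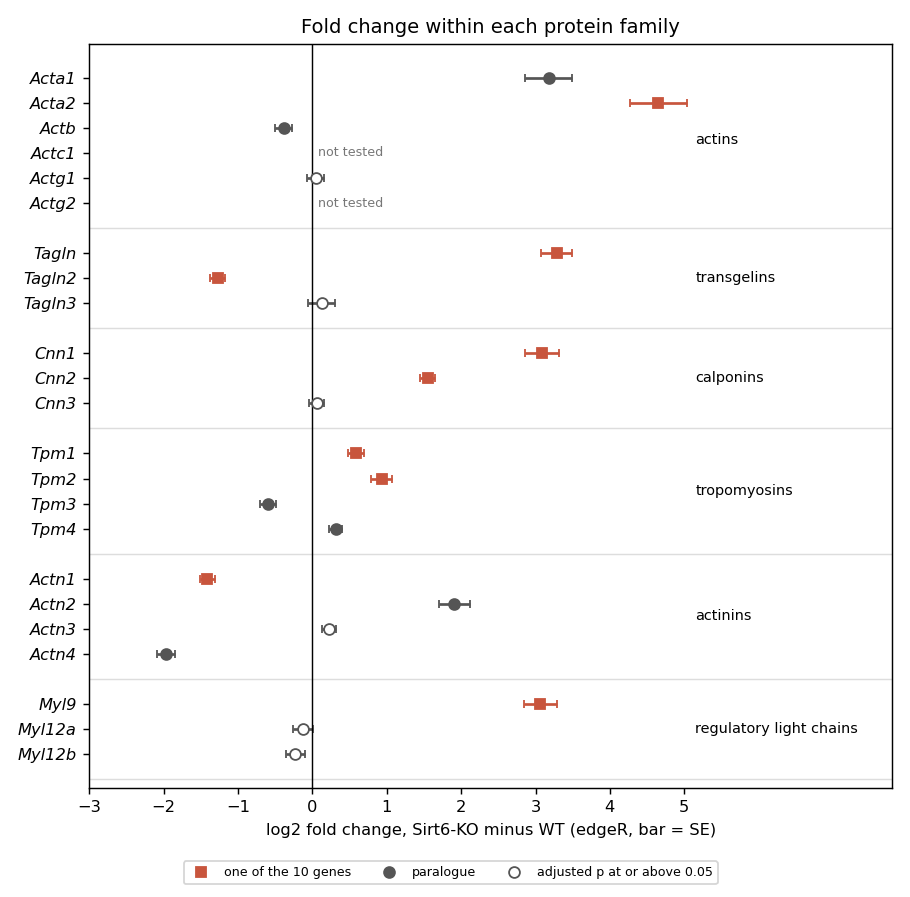
Fitted log2 fold change (knockout minus wild type, ± SE) of the 10 genes (red squares) and their paralogues (grey circles) by family; open symbols have an adjusted p of 0.05 or more, and Actc1 and Actg2 were not tested. The muscle forms Acta1, Acta2, Tagln, Cnn1, Actn2 and Myl9 lie to the right and muscle Actn3 has an open symbol, and both non-muscle actinins, Actn1 and Actn4, lie to the left.

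**Figure D3:**
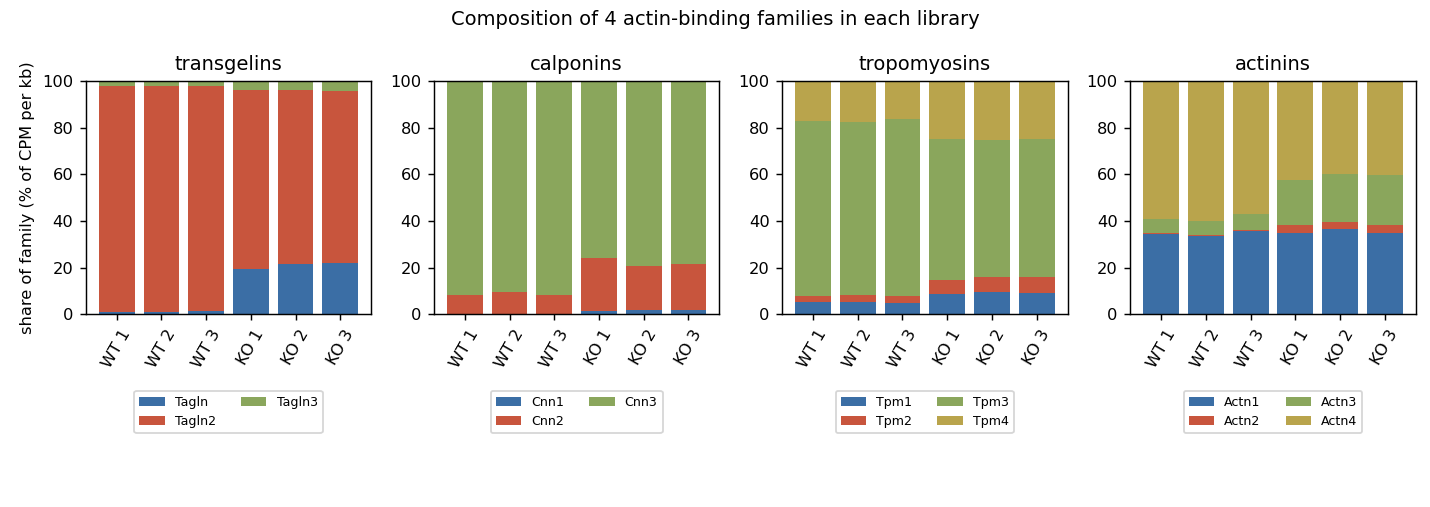
Share of each gene in its family's summed CPM per kilobase of exon, in percent, for each of the 6 libraries. Tagln goes from at most 1.51% of the transgelins to 19.4% or more, Cnn2 and the tropomyosins Tpm1, Tpm2 and Tpm4 take larger shares in all 3 knockout libraries, and the share of Actn1 overlaps between the groups.

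Of the myosin light chains, Myl9 went from 0.593% ± 0.132 to 5.39% ± 0.470 of the regulatory light chains per kb, beside the ubiquitous Myl12a and Myl12b. Neither of these passed (-0.13 ± 0.14 and -0.23 ± 0.13, adjusted p = 0.426 and 0.144). The atrial regulatory light chain gene Myl7 rose with Myl9, from 0.0924 ± 0.0287 to 2.74 ± 0.663 CPM (4.81 ± 0.38, adjusted p = 2.25e-06), whereas the atrial and fetal essential light chain gene Myl4 fell from 4.08 ± 0.224 to 0.591 ± 0.225 CPM (-2.83 ± 0.24, adjusted p = 3.33e-06). The ubiquitous essential light chain Myl6 did not pass (-0.00 ± 0.18, adjusted p = 0.984), and Myl6b fell by 0.50 ± 0.17 (adjusted p = 0.0288). The smaller calls were fragile. Those of Actb and Myl6b ended with total counts as the scaling (adjusted p = 0.0671 and 0.0897), and leaving out wild-type replicates 1, 2 or 3 or knockout replicate 2 ended the call of Actb (0.0667, 0.0701, 0.0502 and 0.0785). The call of Myl6b ended without wild-type replicates 2 or 3 or knockout replicate 2 (0.129, 0.0802 and 0.100), and that of Tpm4 without wild-type replicates 1 or 2 or knockout replicate 2 (0.0737, 0.0791 and 0.0543). Actn3 was called with total counts, with a filter at a mean of 1 CPM and with the length trend removed (0.0203, 0.0426 and 0.0391). Myl12b was called with the replicate number as a block, with the length trend removed and without knockout replicate 3 (0.0479, 0.0286 and 0.0298).

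Other genes of the smooth muscle contractile apparatus were mixed. Of 18 listed, 14 could be tested, and 7 rose and 4 fell (edgeR); their median was 0.63 on the log2 scale. The LIM protein gene Csrp1, the intermediate filament gene Synm and the caldesmon gene Cald1 rose by 0.80 ± 0.10, 1.25 ± 0.20 and 0.63 ± 0.10 (adjusted p = 5.14e-05, 0.000330 and 0.000414). Desmin (Des), the muscle intermediate filament, fell by 0.65 ± 0.11 (adjusted p = 0.000439). Csrp2, the most abundant gene of the list, fell from 288 ± 26.4 to 170 ± 38.2 CPM, and Fbxl22 fell by 1.14 ± 0.20. Their adjusted p values were 0.00153 and 0.000534 (edgeR), and neither call was followed under other settings. All 18 genes summed to 430 to 484 CPM in wild type and 347 to 392 CPM in the knockout. Mylk, the kinase that phosphorylates myosin light chains, rose from 0.369 ± 0.198 to 1.89 ± 0.752 CPM (adjusted p = 0.000519). With 11, 13 and 4 counts in wild type, Mylk passed the filter only through the knockout libraries, so the count of rises leans upward. The smooth muscle myosin heavy chain gene Myh11, a marker of mature smooth muscle, was at 0.632 ± 0.189 and 1.34 ± 0.532 CPM (1.13 ± 0.34, adjusted p = 0.0155), a call that ended without wild-type replicate 3 or knockout replicate 1 (0.0634 and 0.0729). Myocardin (Myocd), the muscle-specific SRF cofactor, had 2 counts in all in wild type and 13 in the knockout, a ratio of 6.54 (exact 95% interval for counting error, 1.48 to 59.7).

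All 7 tested genes of the SRF and cofactor list were called, 4 higher and 3 lower. Srf itself stood at 38.5, 36.5 and 36.0 CPM in wild type and 66.0, 47.7 and 47.2 CPM in the knockout (0.54 ± 0.13, adjusted p = 0.00542), with knockout replicate 1 well above the others. The myocardin-related factor gene Mkl1 fell by 0.62 ± 0.12 (adjusted p = 0.00117). The call of its relative Mkl2 (-0.41, adjusted p = 0.0394) ended with total counts, the filter at 1 CPM and the length trend removed (0.187, 0.0556 and 0.232) and without wild-type replicates 1 or 2 or knockout replicate 2 (0.150, 0.0831 and 0.0688). The LIM domain cofactor genes Fhl1 and Fhl2 rose by 0.86 ± 0.10 and 1.87 ± 0.39 (adjusted p = 3.03e-05 and 0.00204). Lpp, a LIM protein of focal adhesions, fell by 1.34 ± 0.14 (adjusted p = 1.71e-05). Fhl2 had 4, 5 and 7 counts in wild type and passed the filter only through the knockout libraries. The count of rises in each list that holds Fhl2 thus leans upward. Of 21 known SRF targets outside the set, 11 rose, 6 fell and 4 did not pass, with a median of 0.54. Vinculin (Vcl) rose from 78.0 ± 1.62 to 154 ± 25.2 CPM (adjusted p = 5.07e-05) and filamin A (Flna) from 523 ± 23.0 to 1120.1 ± 264 CPM (adjusted p = 0.000162), while Filip1l fell by 1.76 ± 0.19 (adjusted p = 1.83e-05). Csrp1, Fhl1, Fhl2, Srf, Tgfb1i1, Pdlim7 and Myocd each stand in 2 of these 3 lists.

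The lists for signals known to act on contractile genes had medians near or below 0. Of 15 tested TGF-beta genes 5 rose and 6 fell (median -0.11). The ligand gene Tgfb1 and the readouts Tgfbi and Pmepa1 fell, with log2 fold changes of -2.09 ± 0.18, -2.57 ± 0.10 and -1.55 ± 0.12 (adjusted p = 4.46e-06, 5.35e-08 and 1.75e-06). Among the genes that rose, Bambi and Ltbp1 had 0.86 ± 0.11 and 0.57 ± 0.15 (edgeR, adjusted p = 5.51e-05 and 0.00668). The calls of Bambi and Ltbp1 were not followed under other settings. Of 15 tested genes of the YAP and TEAD axis 5 rose and 7 fell (median -0.00): Yap1, Tead4 and Ajuba fell by 0.73 ± 0.10, 1.93 ± 0.15 and 1.05 ± 0.12, and the receptor kinase gene Axl rose by 2.41 ± 0.23 (adjusted p = 0.000124, 2.40e-06, 3.04e-05 and 8.76e-06).

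Genes of the general machinery of actin filaments moved both ways or did not pass. Of 27 tested genes of filament assembly and disassembly 5 rose, 8 fell and 14 did not pass (median -0.04). The severing protein gene Gsn (gelsolin) rose from 2.84 ± 0.266 to 17.4 ± 2.52 CPM and the Arp2/3 subunit gene Arpc1b from 41.9 ± 1.44 to 95.2 ± 4.12 CPM (adjusted p = 3.18e-07 and 2.04e-06). The capping gene Tmod2 rose by 1.17 ± 0.16 on the log2 scale (adjusted p = 9.21e-05). Wasl, an activator of Arp2/3, fell by 0.87 ± 0.10 (adjusted p = 3.13e-05). Of 20 crosslinker and focal adhesion genes 7 rose and 9 fell (median -0.24). Lima1 (Eplin), Pls3 (plastin) and the kindlin gene Fermt1 rose by 1.67 ± 0.12, 1.22 ± 0.12 and 1.95 ± 0.22, and Lasp1 fell by 1.22 ± 0.11 (adjusted p = 9.86e-07, 8.88e-06, 3.27e-05 and 7.69e-06).

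**Figure D4:**
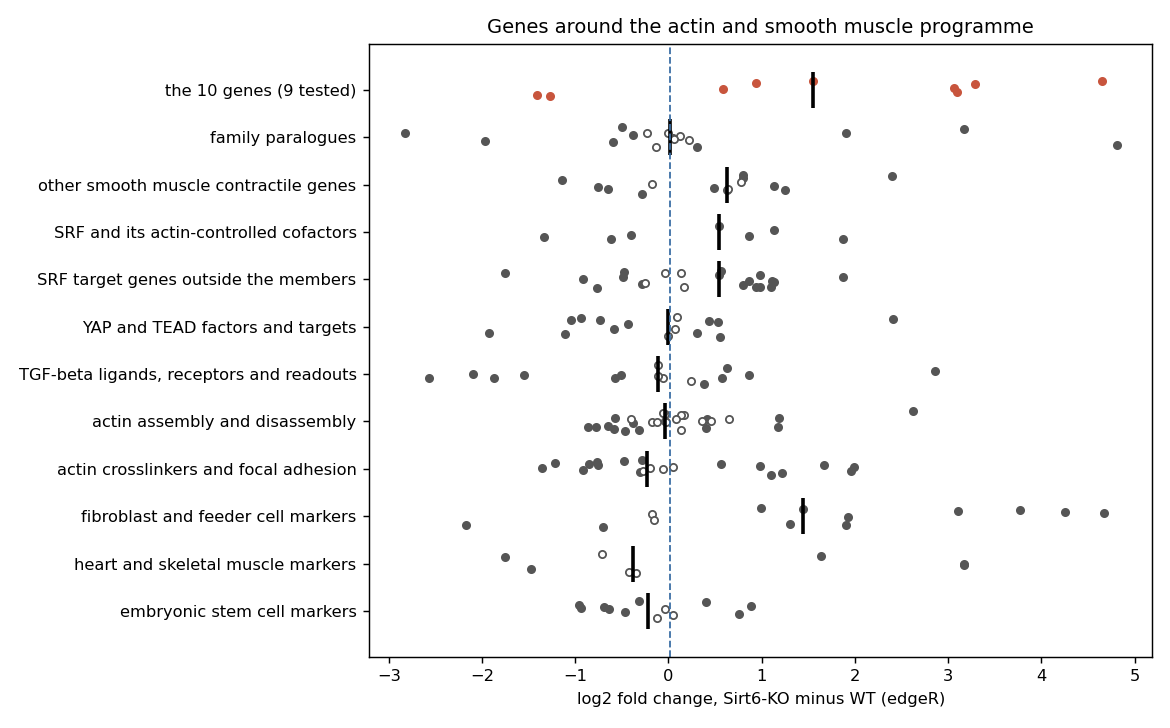
Fitted log2 fold change (knockout minus wild type) of the tested genes by list, with black bars at each list's median, open circles for an adjusted p of 0.05 or more and a dashed line at the median of all tested genes (0.01). The 10 genes (red) reach further right than most lists, as they were chosen for their differences. The fibroblast list also has a median above 1, but some of its genes passed the filter only through the knockout, as did some genes of other lists. The signalling and actin machinery lists centre near 0.

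Most fibroblast markers that could be tested rose alongside Acta2, Tagln, Cnn1 and Myl9, while heart and skeletal muscle markers went both ways. Of 23 fibroblast and feeder cell markers 13 were tested, and 9 rose and 2 fell (edgeR, median 1.45). Some passed the filter on low counts only through the knockout libraries, so this count and median lean upward. Col1a2, Col5a2 and Col6a1 had 5, 4 and 4 counts in all in wild type and 46, 82 and 111 in the knockout. Col6a2, Thy1, Mmp2 and Col5a1 rose by 3.77 ± 0.27, 1.92 ± 0.18, 1.30 ± 0.13 and 1.45 ± 0.15 (adjusted p = 1.26e-06, 6.27e-06, 1.51e-05 and 1.78e-05). The fibroblast receptor gene Pdgfra fell from 4.17 ± 0.584 to 0.892 ± 0.340 CPM (-2.17 ± 0.25, adjusted p = 3.05e-05), and so did the intermediate filament gene vimentin (Vim), from 184 ± 10.6 to 114 ± 9.33 CPM (-0.70 ± 0.10, adjusted p = 0.000151). All 23 markers summed to 209 to 229 CPM in wild type and 176 to 185 CPM in the knockout, a sum that is mostly Vim. Without Vim they summed to 34.8 to 35.5 CPM in wild type and 59.3 to 79.0 CPM in the knockout, the opposite order. Lum and Fap had no count in any of the 6 libraries, and 13 of the 23 markers had a mean under 1 CPM in the knockout. Of 17 heart and skeletal muscle markers 8 were tested: Myh3, Acta1 and Myh6 rose by 3.17 ± 0.30, 3.18 ± 0.31 and 1.64 ± 0.23 (adjusted p = 8.56e-06, 1.11e-05 and 0.000128), and Ttn and Gata4 fell. Myh3 and Acta1 passed the filter only through the knockout libraries, so the rises in this list lean upward too. All 17 summed to 91.9 to 109 CPM in wild type and 43.2 to 59.2 CPM in the knockout. Without Ttn, the most abundant of them, the sums overlapped, at 24.5 to 27.1 and 23.3 to 29.9 CPM. The part of other cells in the rise of the contractile genes was not tested, and in bulk RNA more cells of a type and more RNA per cell cannot be told apart.

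The 10 genes also differed in how they varied among the 3 knockout libraries, a measure the choice of genes did not use. Knockout replicate 3 was above knockout replicate 1 for 8 of the 9 tested genes, by 0.59 on the log2 scale (with 0.5 CPM added) for Acta2, 0.50 for Tagln, 0.42 for Myl9 and Tpm2, 0.40 for Cnn1, 0.30 for Tpm1, 0.27 for Tagln2 and 0.02 for Cnn2. Actn1 alone was lower, at -0.23. The share of all tested genes with replicate 3 above replicate 1 was not computed, so nothing is read from this count. Across 14843 genes this ratio followed exon length, with a Spearman correlation of -0.57 across genes, which are not independent replicates. The ratio of wild-type replicate 3 to replicate 1 did so too, with a correlation of -0.37. With the genes in 5 equal groups by length, the median of the knockout ratio was 0.34 in the shortest (up to 1765 bases). It was -0.37 in the longest (5374 bases or more). The wild-type medians of the same groups were 0.13 and -0.10. Tagln, Tagln2 and Myl9, at 1595, 1649 and 1128 bases, are in the shortest group, Tagln and Myl9 above its knockout median and Tagln2 below it. Acta2, Cnn1 and Tpm2, of 2035 to 2521 bases, lay above the median of their length group (0.02), and Tpm1, of 4780 bases, above that of its own (-0.25). Cnn2, in the group of Acta2, was at its median, and Actn1, of 3800 bases and in the group of Tpm1, was close to its median. With each library's length trend removed, the 9 genes kept their direction and call, with log2 fold changes of, for example, 4.58 for Acta2, 3.21 for Tagln, 3.04 for Cnn1, 1.49 for Cnn2, 0.88 for Tpm2, 0.66 for Tpm1, -1.34 for Tagln2 and -1.41 for Actn1. These calls too are a description, since the same contrast chose the genes.

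**Figure D5:**
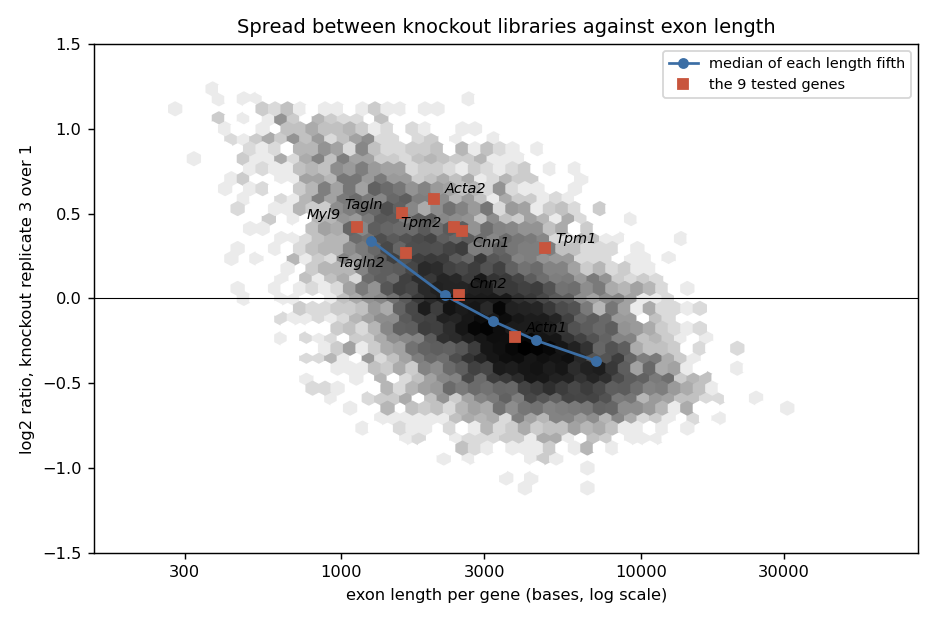
Log2 ratio of knockout replicate 3 to knockout replicate 1 against exon length (log scale) for tested genes (grey hexagons, darker for more genes on a log colour scale; single genes appear white, and genes beyond the axes are not shown), with the median of each of 5 length groups (blue) and the 9 tested genes (red squares). The medians go from 0.34 to -0.37 with length, and Actn1 is the only red square below 0, close to the median of its length group (-0.25).

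The tested genes whose profile over the 6 libraries was most like the mean profile of Acta2, Tagln, Cnn1 and Myl9 were Plac8, Car2, Rtn1, Slc43a3 and Ell3, each with a Pearson correlation of 0.999 over the 6 libraries, given without a test. A close likeness was not particular to these 5 genes: 204 of 10873 genes considered reached 0.99. Plac8 stood at 1.47 ± 0.154 and 13.5 ± 2.59 CPM and the carbonic anhydrase gene Car2 at 46.8 ± 0.250 and 335 ± 54.7 CPM in wild type and knockout. Rtn1, Slc43a3 and the elongation factor gene Ell3 had log2 fold changes of 1.71, 1.51 and 1.39.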

How the data were processed

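Total RNA of mouse embryonic stem cells was sequenced. The deposited count table holds whole-number counts per gene symbol, not normalized. Per the submitters' processing notes, the tools were TopHat2 2.0.10, HTSeq 0.6.1 and DESeq2, and the build was mm9. A second deposited table gives for 19025 genes, per the file headers, the mean signal, the log2 fold change, its standard error, a test score and p-values, raw and adjusted.

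Libraries were matched by column name to sample titles. Counts were tested by the two-sided quasi-likelihood test of edgeR 4.0.16 (R 4.3.3), after TMM scaling and the filterByExpr filter, with Benjamini-Hochberg adjustment over 14988 genes; SE is the log2 fold change divided by the square root of F. Nothing in the labels says that replicates came from separate cultures, so the p-values reflect the spread between these samples alone, and this spread may be technical. Every pair of replicates differed by more than sampling noise (lowest chi-square per degree of freedom, 3.80).

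The members and the other lists were chosen with earlier results of these data known; 1 of the lists and 1 gene are not reported here. Besides the members, Sirt6 and the paralogues, up to 4 called genes per list with the smallest adjusted p were named, and the 5 genes most alike that reach 5 CPM or more in either group; Actg2 was meant to enter that profile but was not tested. Srf, Mkl2, Mylk, Myh11, Myocd, Flna, Gata4, Pou5f1, Nanog, Sox2, Pdgfra, Tgfb1i1, Pdlim7, Vim, Lum, Fap, Col1a2, Col5a2, Col6a1 and Pcsk7 were chosen after their values were seen. So were Csrp2, Fbxl22, Bambi and Ltbp1. Exon lengths came from GENCODE M21 (GRCm38, not the authors' build), known for 99.0% of tested genes. Of the 50-base words in a member's transcripts, 58.3% were shared with other genes for Tagln, 6.79% for Actn1 and under 1% for the others. Alternatives were DESeq2 size factors, total counts, no filter, a mean of at least 1 CPM, DESeq2 1.42.0, limma-voom (limma 3.58.1), the replicate number as a block and each replicate left out. Removal of each library's length trend was added after seeing the data.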

Additional observations from a re-analysis of the deposited data

How the results depend on the processing

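Under 14 alternatives all 126 values of the 9 tested members kept their direction and their call. The same contrast in these libraries chose the genes, so this is a description of the fits and no support for the differences. Their log2 fold changes ranged from 4.42 to 4.87 for Acta2, 3.12 to 3.54 for Tagln, 2.92 to 3.34 for Cnn1, 2.91 to 3.24 for Myl9, 1.48 to 1.67 for Cnn2, 0.82 to 1.06 for Tpm2, 0.50 to 0.70 for Tpm1, -1.38 to -1.15 for Tagln2 and -1.48 to -1.29 for Actn1. With no filter Actg2 was tested too and was not called, so 9 members were called under every alternative. The number of genes called ran from 6986 to 9875 with single replicates left out, against 8345. Over 83 genes, 1127 of 1161 values kept their call, 27 lost it, 7 gained one and 0 reversed; the cause was not tested. Deviations from the group means correlated at 0.208, -0.025 and 0.201 between same-numbered libraries of the 2 groups. Replicate 3 against replicate 1 followed exon length in the same direction in both groups. With 3 libraries per group these values cannot decide whether the replicate numbers pair the samples. With the replicate block 9352 genes and 9 members were called. Depth limits Actg2, Actc1 and Myocd, with 18 counts or fewer per group.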
